A study of Homo sapiens with 6 samples.

Results

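The 7 genes described here, IGF2BP1, IGF2BP2, IGF2BP3, LIN28A, LIN28B, HMGA1 and HMGA2, encode oncofetal proteins, which are abundant in the embryo, scarce in most adult tissues and made again by many tumours. They were taken by name from the 31122 genes of the count table. The list was chosen by the measured counts and FPKM of these 6 libraries, in which IGF2BP1 had been seen to switch on under the GPR52 KO label, so their values in that comparison are given as a description with no p-value. The SEs and counting intervals beside them give the precision of each value and are no test of the difference. The RNA came from MDA-MB-468, an established line of basal-like, triple-negative breast cancer cells. In the first group were 3 libraries of parental cells, labelled WT and grown as separate wells of one 6-well plate with no editing. In the second group were 3 populations carrying the GPR52 KO label, made with CRISPR-Cas9 and a single guide RNA (sgRNA1) directed at the orphan receptor gene GPR52, and reported by the submitters to carry indels by Sanger sequencing. Whether these populations were clones or pools is not given in the sources used here, no control guide was analysed here, and guide, selection and time in culture cannot be told apart from the label.

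LIN28A and LIN28B bind the precursors of let-7 microRNAs and block their maturation. Mature let-7 in turn pairs with target mRNAs through its seed and lowers them, and the mRNAs of IGF2BP1, HMGA2 and LIN28B are among its best known targets. The 3 IGF2BP proteins bind mRNAs through KH and RRM domains, read the m6A mark and protect or localise their targets, whereas HMGA1 and HMGA2 are small chromatin proteins that bend AT-rich DNA.

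The let-7 family is shown first because its seed connects these genes. All 9 mature family members taken from RefSeq (GRCh38.p14) held the same seed, bases 2 to 8, in capitals below in 3 of them.
hsa-let-7a-5p: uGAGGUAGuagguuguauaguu
hsa-let-7d-5p: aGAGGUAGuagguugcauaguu
hsa-miR-98-5p: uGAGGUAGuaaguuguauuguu
The match to this seed, CTACCTC, was searched on the sense strand only, in the 3′ UTR of 1 GENCODE transcript per gene (release 29, GRCh38). IGF2BP1, HMGA2 and LIN28B each held 4 matches, and IGF2BP2, IGF2BP3, LIN28A and HMGA1 each held 1. Of 18914 genes with a 3′ UTR, 8.60% held at least 1 match and 0.164% held at least 3. The matches of the 5 genes with substantial counts follow, each in its 30-base window with the match in capitals.
IGF2BP1 match 1 (chr17:49051061-49051090, plus strand): tgtgtgcgaagtaaaCTACCTCaaggtatg
IGF2BP1 match 2 (chr17:49053698-49053727, plus strand): cagcagtgctagtaaCTACCTCacagagcc
IGF2BP1 match 3 (chr17:49054352-49054381, plus strand): gtataaatggattaaCTACCTCaatcctta
IGF2BP1 match 4 (chr17:49054997-49055026, plus strand): tcacttttgttttatCTACCTCttagcaaa
HMGA2 match 1 (chr12:65963298-65963327, plus strand): gccaacgttcgatttCTACCTCagcagcag
HMGA2 match 2 (chr12:65964533-65964562, plus strand): ccccactactcaataCTACCTCtgaatgtt
HMGA2 match 3 (chr12:65964945-65964974, plus strand): ttgacttgcaaagacCTACCTCcagacttc
HMGA2 match 4 (chr12:65965798-65965827, plus strand): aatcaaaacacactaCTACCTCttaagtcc
IGF2BP2 match (chr3:185644213-185644242, minus strand): aacacacagaagaagCTACCTCaggtgttt
IGF2BP3 match (chr7:23311788-23311817, minus strand): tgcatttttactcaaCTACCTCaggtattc
HMGA1 match (chr6:34245829-34245858, plus strand): tcctctgttcacaaaCTACCTCtggacagt
An A follows the match in 3 of the 4 windows of IGF2BP1, in 1 of the 4 of HMGA2, and in the single windows of IGF2BP2 and IGF2BP3, but not in that of HMGA1. The HMGA2 transcript with the longest annotated 3′ UTR, 7421 bases, held 0 matches, so the count of this gene depends on the isoform. A match is a description of the letters and does not show that let-7 acts there.

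Library totals ran from 25637794 to 31692454 counts, so that 1 count was worth 0.0321 to 0.0397 CPM, the count scaled to a library of standard size with TMM library sizes. Of the 17420 genes with enough counts to be tested, 7105 were called, meaning an adjusted p under 0.05 in edgeR's quasi-likelihood test with Benjamini-Hochberg adjustment. The targeted gene went against its label: GPR52 had 9, 1 and 0 counts in parental-labelled libraries 1, 2 and 3, and 645, 694 and 724 in KO-labelled libraries 1, 2 and 3. For this reason the groups are called parental-labelled and KO-labelled throughout, and each direction below is a direction between these labels. The 12 listed breast epithelial markers were all detected, and their sum was 12847 to 13197 CPM in parental-labelled and 11421 to 16074 CPM in KO-labelled libraries. The highest of them was EGFR, at 4560, 4927 and 8307 CPM in KO-labelled 1, 2 and 3, so the sum largely follows this gene. Of the 12 markers 3 rose, 3 fell and 6 were not called, so the sum does not show that each marker was steady. Of 16 markers of fibroblasts, endothelium, blood, embryonal stem cells and liver, 12 had a row in the table, 9 of these had at most 10 counts in any library, and their sum was 8.86 to 10.6 CPM against 24.7 to 28.6 CPM. Most of the higher sum was COL1A1, a fibroblast collagen that reached 27.6 CPM. The other fibroblast markers did not follow it, since COL1A2 and LUM had at most 1 count in any library and PDGFRB had 3, 1 and 6 counts against 2, 2 and 8, and the endothelial marker CDH5 fell by 1.38 on the log2 scale. The part of these markers in the results below was not tested.

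IGF2BP1, which binds the MYC and beta-actin mRNAs among others, had 8, 0 and 0 counts in the parental-labelled libraries and 896, 754 and 722 in the KO-labelled libraries. In CPM this was 0.264, 0 and 0 against 33.8, 26.7 and 25.8. The groups did not overlap, and the only parental-labelled library with any count was library 1. The mean went from 0.0880 ± 0.152 to 28.7 ± 4.38 CPM (SD, n = 3 in each group), a log2 fold change of 8.21 (SE 0.41). This placed IGF2BP1 14th from the top among the 17420 tested genes. It passed the filter on low counts only through the KO-labelled libraries. The ratio of summed counts, scaled to library size, was 310 with an exact binomial 95% interval of 157 to 719, which covers counting error only. Without parental-labelled 1 the other two libraries held 0 counts, and KO-labelled IGF2BP1 was at least 537-fold higher, taken against a floor of 3 counts over both libraries. Without parental-labelled 3 the log2 fold change was 7.59.

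**Figure D1:**
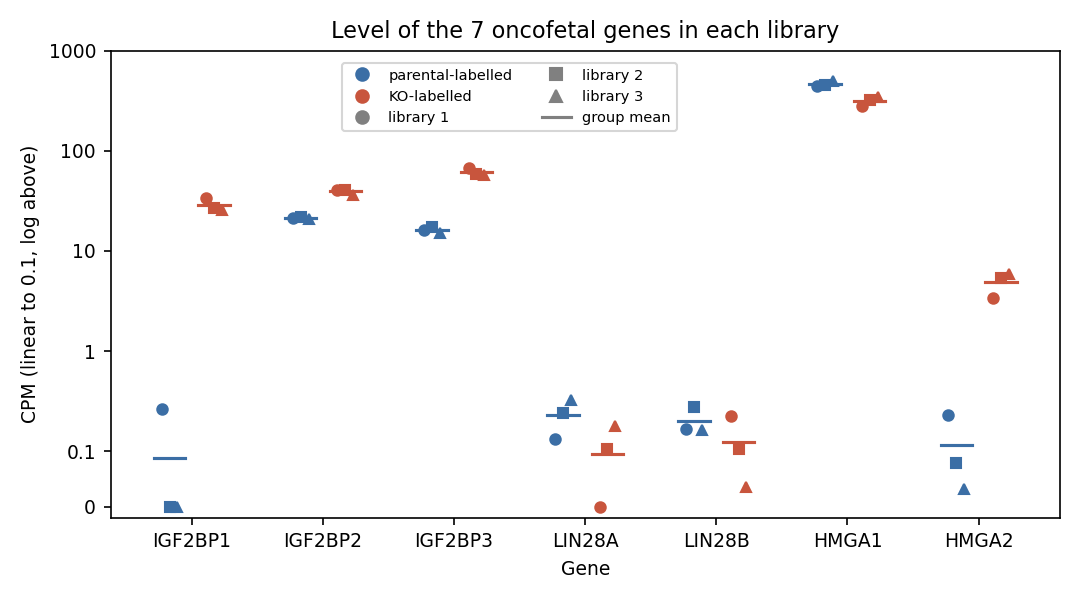
Level of each of the 7 genes in each library, in CPM on an axis that is linear up to 0.1 and logarithmic above. Points are libraries and bars are group means (n = 3). KO-labelled IGF2BP1 sits between 25.8 and 33.8 CPM, with parental-labelled libraries at 0 to 0.264, and LIN28A and LIN28B stay low in all 6 libraries.

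The deposited FPKM values, which scale by transcript length and library size, gave IGF2BP1 0.118, 0 and 0.00128 in the parental-labelled and 4.14, 3.64 and 3.96 in the KO-labelled libraries. The small value in parental-labelled 3 stood beside 0 counts. On the log2 CPM scale, the SD of IGF2BP1 over the KO-labelled populations was 0.21, beside a median of 0.17 over 1967 genes of similar mean level. The 3 populations thus reached levels that varied about as much as those of other genes at this abundance.

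IGF2BP3, the paralogue most often used as a tumour marker in pathology, was already present in the parental-labelled libraries, at 495, 438 and 470 counts, against 1771, 1650 and 1615 in the KO-labelled libraries. The corresponding CPM were 16.3, 17.4 and 15.1 against 66.7, 58.3 and 57.7. All 3 KO-labelled values lay above all 3 parental-labelled values, with means of 60.9 ± 5.05 and 16.3 ± 1.15 CPM, or 1.90 apart on the log2 scale (SE 0.10). FPKM were 5.05, 5.03 and 3.95 against 16.8, 14.8 and 17.3.

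IGF2BP2, the paralogue that stays active in many adult tissues, had 651, 547 and 649 counts in the parental-labelled and 1086, 1160 and 1025 in the KO-labelled libraries. In CPM these were 21.5, 21.7 and 20.9 against 40.9, 41.0 and 36.6. The groups did not overlap, and IGF2BP2 had the smallest difference of the 3 paralogues, a log2 fold change of 0.89 (SE 0.08) between means of 21.4 ± 0.447 and 39.5 ± 2.52 CPM. In FPKM the KO-labelled populations spread more widely, at 13.5, 25.8 and 21.8, against 10.1, 9.15 and 7.41 in the parental-labelled libraries. The FPKM obtained per CPM of IGF2BP2 was 0.331 in KO-labelled 1 and 0.629 and 0.596 in KO-labelled 2 and 3. For HMGA1 it stayed between 0.487 and 0.516 in all 6 libraries, and for IGF2BP3 between 0.252 and 0.309. For HMGA2 it ran from 0.176 to 0.578, but with few parental-labelled counts. For IGF2BP1 it was 0.446 in parental-labelled 1, from 8 counts, and 0.123 to 0.154 in the KO-labelled libraries. Which transcripts of IGF2BP2 were present was not tested.

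The 3 paralogues were added up per length, in FPKM, to see how the make-up of the family differed. The sum was 15.3, 14.2 and 11.4 in the parental-labelled and 34.5, 44.2 and 43.0 in the KO-labelled libraries, with means of 13.6 ± 2.04 and 40.6 ± 5.30. IGF2BP1 made up 0.26 ± 0.44% of the parental-labelled and 9.81 ± 1.95% of the KO-labelled sum, IGF2BP2 went from 65.3 ± 0.87% to 49.4 ± 9.60%, and IGF2BP3 from 34.4 ± 1.28% to 40.8 ± 7.68%. IGF2BP1 therefore had the largest fold difference and the smallest share, also in KO-labelled cells. Its parental-labelled share rested on library 1 and was 0.0056% without it. Without length scaling, by CPM, its KO-labelled share was 22.2%.

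**Figure D2:**
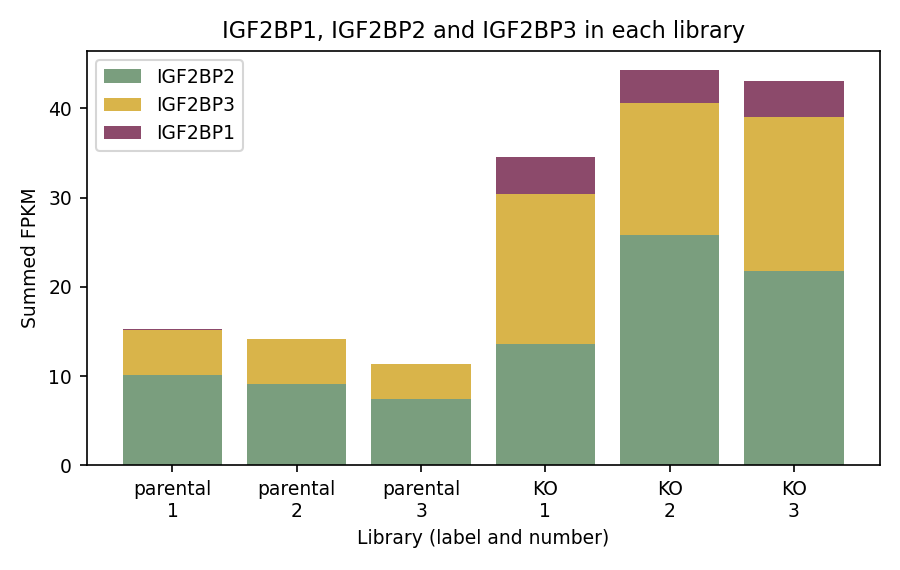
Summed FPKM of IGF2BP2, IGF2BP3 and IGF2BP1 in each library, stacked from the bottom, without error bars because each bar is 1 library. The sums lie at 11.4 to 15.3 in parental-labelled and 34.5 to 44.2 in KO-labelled libraries, and the IGF2BP1 segment is visible in the KO-labelled bars.

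LIN28A, the form first tied to pluripotency, had 4, 6 and 10 counts in the parental-labelled and 0, 3 and 5 in the KO-labelled libraries. LIN28B, the form seen more often in carcinomas, had 5, 7 and 5 counts against 6, 3 and 1. Neither gene had enough counts to be tested. The ranges of both overlapped between the groups. The ratio of KO-labelled to parental-labelled counts was 0.418 (exact 95% interval 0.159 to 0.991) for LIN28A and 0.615 (0.252 to 1.42) for LIN28B, from 8 against 20 and 10 against 17 counts in all. No FPKM value of either gene exceeded 0.0796. At this level a handful of cells with more RNA and a little RNA in every cell cannot be told apart, which holds for each bulk value given here.

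HMGA2, the embryonic chromatin protein of the pair and a let-7 target, had 7, 2 and 1 counts in the parental-labelled and 89, 152 and 166 in the KO-labelled libraries. The CPM were 0.231, 0.0795 and 0.0321 against 3.35, 5.37 and 5.93. Every KO-labelled value was above every parental-labelled one, and KO-labelled 1 was the lowest of its group. Means were 0.114 ± 0.104 and 4.89 ± 1.35 CPM, a log2 difference of 5.35 (SE 0.46), and the count ratio was 42.5 (exact 95% interval 22.9 to 89.4). Without parental-labelled 1, which held most of the parental-labelled counts, the ratio was 92.2 (31.3 to 449). FPKM were 0.0406, 0.0292 and 0.0182 against 1.63, 2.67 and 3.42. The SD of log2 CPM over the KO-labelled populations was 0.43, beside a median of 0.27 over 1402 genes of similar level. RPSAP52, an antisense transcript of HMGA2, had 0, 1 and 1 counts against 2, 4 and 3, and reads of the 2 genes cannot be told apart where counting ignored strand.

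HMGA1, the paralogue abundant in most carcinoma cells, was the highest of the 7 genes and the only tested one that was lower in the KO-labelled libraries. It had 13444, 11509 and 15463 counts in the parental-labelled and 7450, 9141 and 9729 in the KO-labelled libraries. In CPM these were 444, 457 and 497 against 281, 323 and 347, again without overlap. The means were 466 ± 27.8 and 317 ± 33.7 CPM, a log2 fold change of -0.56 (SE 0.09), and FPKM were 224, 223 and 252 against 145, 167 and 178. HMGA1 has near-identical pseudogenes that can take or lend reads, so its counts carry that uncertainty. The 6 HMGA1 pseudogene rows held 3.46% to 4.03% of the summed HMGA1 and pseudogene counts per library, with no row above 248 counts. In KO-labelled libraries HMGA2 made up 1.53% of the summed FPKM of the 2 HMGA genes, against 0.0128% in parental-labelled ones, so HMGA1 stayed the main form in both groups.

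By FPKM, the parental-labelled order was HMGA1, IGF2BP2 and IGF2BP3, each apart from the next, followed by LIN28A, IGF2BP1, LIN28B and HMGA2, whose ranges overlapped. In KO-labelled libraries it was HMGA1, then IGF2BP2 and IGF2BP3, which overlapped, then IGF2BP1, HMGA2, and LIN28B and LIN28A, which overlapped. Of the 7 genes 5 passed the filter on low counts, IGF2BP1 and HMGA2 only through the KO-labelled libraries. By the same call as for all genes, 4 of these were higher and 1 lower, and none of the 5 overlapped between groups. Over all tested genes 40.8% were called, 21.0% higher and 19.8% lower, and 54.4% did not overlap, 27.4% with the KO-labelled libraries higher and 27.1% with them lower. The list was proposed from this same contrast, so nothing is read from these counts.

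The few IGF2BP1 and HMGA2 counts of parental-labelled 1 were set beside those of all genes with large differences, IGF2BP1 and HMGA2 included. Parental-labelled 1 held 8 of 8 IGF2BP1 counts and 7 of 10 HMGA2 counts, equal to 0.919% and 4.73% of the KO-labelled mean CPM. Over the 91 genes called higher with a log2 fold change over 5, the parental-labelled libraries held 402, 159 and 186 counts, so that 53.8% lay in parental-labelled 1, which held 34.8% of all parental-labelled counts. Parental-labelled 1 had the highest CPM of its group in 54 of the 91 genes, with a median of 1.25% of the KO-labelled mean. The source of these counts was not tested.

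The tested genes with the profile most like IGF2BP1 were found by the root mean square distance between centred log2 CPM over the 6 libraries. GPR52 came first, at a distance of 0.33, followed by GSTP1, a glutathione transferase, at 0.39, MCTP2 at 0.51, FAR1, a fatty acyl-CoA reductase, at 0.52 and FAM83E at 0.53. GSTP1 had 14, 1 and 2 counts against 2063, 2336 and 2077, and MCTP2 had 8, 0 and 0 against 427, 432 and 332. All 5 shared with IGF2BP1 their highest parental-labelled count in library 1. The likeness rests on 6 libraries in 2 groups and largely restates the difference between groups.

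The 3 tested genes on each side of each of the 7 were then examined, in GENCODE order, to see whether the differences extended along the chromosome. Of these 42 neighbours 10 rose, 7 fell and 25 were not called, or 40.5% called beside 40.8% of all tested genes. Their median log2 fold change was 0.07, beside 0.01 over all tested genes. Without parental-labelled 1, 2 or 3 the count of called neighbours was 11, 10 and 11. Over all tested genes the share called was then 27.7%, 27.3% and 29.6%. Around IGF2BP1 on chromosome 17, the nearest tested gene before it, AC091133.1, had a log2 fold change of -0.29 (SE 0.28, adjusted p = 0.454 by edgeR), and the nearest after it, the zinc finger gene ZNF652, rose by 0.59 (SE 0.11, adjusted p = 0.0033). All 6 neighbours of IGF2BP1 lay between -0.29 and 0.59, far below its own 8.21. Around IGF2BP3 on chromosome 7, 4 of 6 neighbours rose and none fell, with a median of 0.47, beside 1.90 for IGF2BP3 itself. Around LIN28B on chromosome 6, 1 of 6 neighbours rose and 3 fell, with a median of -0.35. Over all tested genes 21.0% rose and 19.8% fell. The neighbours of HMGA2 lay between -0.74 and 0.75.

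**Figure D3:**
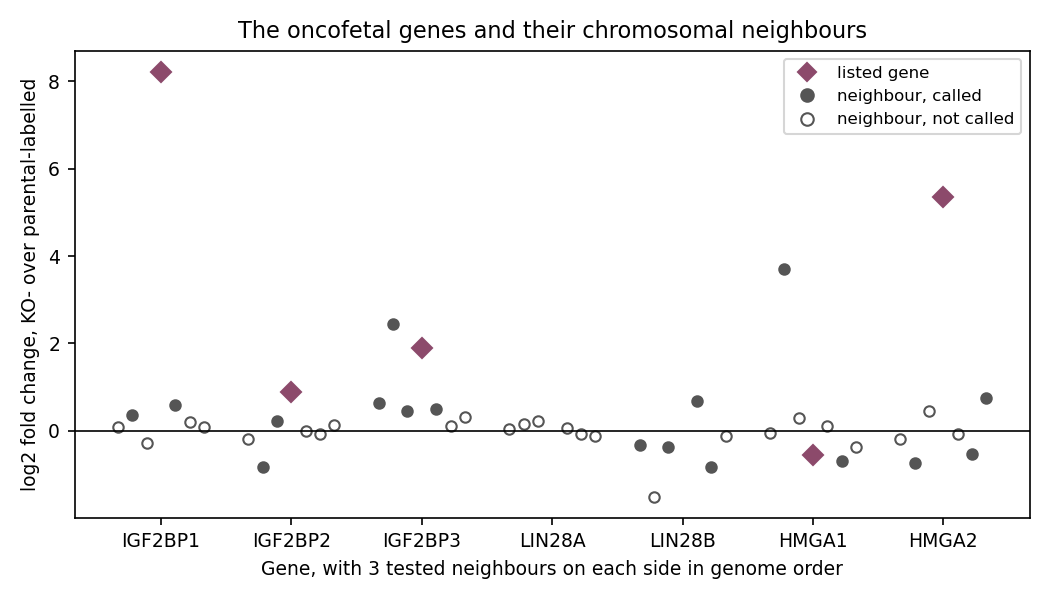
Log2 fold change (KO-labelled over parental-labelled) of the 5 tested genes of the list (diamonds) and of 3 tested neighbours on each side of all 7 genes (circles, filled where called by edgeR). IGF2BP1 at 8.21 and HMGA2 at 5.35 stand far above their own neighbours, which lie within 0.75 of 0. GRM4 near HMGA1, at 3.70, is the highest neighbour, and passed the filter on low counts only through the KO-labelled libraries.

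The genes around the LIN28 and let-7 axis were described next. Of 29 tested genes reported as let-7 targets, the 7 left out, 9 rose, 5 fell and 15 were not called, with a median log2 fold change of 0.20. At 48.3% the share called was near the background of 40.8%. HIC2, a transcriptional repressor with 4 seed matches, rose from 5.28 ± 0.380 to 15.8 ± 3.11 CPM, a log2 fold change of 1.58 (SE 0.16, edgeR adjusted p = 0.00021). CCND1, the cyclin D1 gene of the G1 phase, fell from 293 ± 8.16 to 121 ± 24.6 CPM, or by 1.27 on the log2 scale. The receptor genes went opposite ways, since TGFBR1 fell by 1.11 and IGF1R, the insulin-like growth factor receptor, rose by 0.87. MYC at 0.11 (-0.15 without KO-labelled 3) and CDK6 at 0.29 were not called, and TRIM71, a ubiquitin ligase that let-7 controls, was untested at 0, 0 and 0 against 3, 1 and 1 counts.

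Across tested genes that were not on the list, the number of let-7 seed matches was compared with the calls. Of 11010 genes with no match 24.0% rose and 22.4% fell. Of 1203 genes with 1 or 2 matches 25.8% rose and 21.4% fell, and of 23 genes with 3 or more 5 rose and 5 fell. Among these 23, NYNRIN, which encodes a retrovirus-derived protein, rose by 3.61 (SE 0.15, edgeR adjusted p = 3.4e-06), and SMC1A, a cohesin subunit, fell by 0.71. NYNRIN held 3 matches and SMC1A held 4. The median 3′ UTR length was 987.5 bases with no match, 2705 with 1 or 2 and 5954 with 3 or more. Whether let-7 has a part in any of these differences was not tested. Mature let-7 was not measured in these poly(A) libraries. The MIRLET7D row held 10 to 17 counts per library, and no other let-7 row exceeded 5.

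Of 16 tested genes of the LIN28 and let-7 processing machinery 6 rose, 2 fell and 8 were not called (median 0.21), or 50% called beside the background of 40.8%. The nuclear processing enzyme DROSHA rose by 0.51, and the Argonaute genes AGO2 and AGO1 rose by 0.57 and 0.43. HUWE1, a ubiquitin ligase, fell by 0.74. DICER1, which cuts the precursor, had 147 ± 17.2 and 167 ± 28.8 CPM and was not called at 0.19. Without parental-labelled 1 or without parental-labelled 2, 5 genes of this list were called, beside 27.7% and 27.3% of all tested genes.

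Of 20 tested mRNAs reported to be bound or stabilised by IGF2BP proteins 4 rose, 4 fell and 12 were not called, and the 40.0% called was near the background. H19, an imprinted long noncoding RNA and a classical IGF2BP1 ligand, had 79, 63 and 86 counts in parental-labelled and 2347, 1880 and 2383 in KO-labelled libraries, and rose by 4.92 (SE 0.15, edgeR adjusted p = 1.3e-06). Its partner in the imprinted locus, IGF2, from which the IGF2BP family takes its name, had 1, 1 and 0 counts against 2, 2 and 0 and was not tested. SRF, a transcription factor whose mRNA IGF2BP1 is reported to protect, fell by 0.87, and CD44, an adhesion receptor, fell by 0.58. FOXK1, a forkhead factor, rose by 0.47. MYC, whose coding region gave IGF2BP1 its first name as a binding protein, had 59.2 ± 4.56 and 63.9 ± 18.4 CPM.

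Of 18 tested protein partners of IGF2BP 5 rose, 0 fell and 13 were not called (median 0.07), or 27.8% called, beside 40.8% of all tested genes. FMR1 rose by 0.66, the splicing regulator KHSRP by 0.49, the poly(A)-binding protein gene PABPC1 by 0.37 and the nonsense-mediated decay helicase gene UPF1 by 0.35. Of 19 tested m6A writers, erasers and readers 6 rose, 2 fell and 11 were not called (median 0.12), and the 42.1% called was near that background. The methyltransferase gene METTL16 rose by 0.74, RBM15B by 0.62 and RBMX by 0.50, and the demethylase gene FTO fell from 68.6 ± 0.480 to 42.1 ± 1.49 CPM, or by 0.71. Without parental-labelled 1 or 2, 5 and 4 genes of the m6A list were called, beside 27.7% and 27.3% of all tested genes. Of 30 other tested genes with KH or cold shock domains 5 rose, 2 fell and 23 were not called (median 0.08), or 23.3% called, beside the background of 40.8%. MEX3A rose by 1.56, and QKI, a splicing and circular RNA regulator, fell by 1.75.

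On the chromatin side, 5 of 15 tested genes reported to be regulated by HMGA proteins rose, 1 fell and 9 were not called (median 0.15), and the 40.0% called was near the 40.8% of all tested genes. PLAU, the urokinase gene, rose from 1.10 ± 0.177 to 27.7 ± 7.45 CPM, a log2 fold change of 4.65 (SE 0.26, edgeR adjusted p = 1.2e-05). TET1 rose by 0.99 and the kinase gene PIM1 fell by 1.06. The cell cycle inhibitor gene CDKN2A rose by 0.37, and this call was lost without parental-labelled 1 or parental-labelled 2. Without parental-labelled 1, 3 genes of this list were called, beside 27.7% of all tested genes. Of 21 other tested high mobility group genes 8 rose, 4 fell and 9 were not called (median 0.20), or 57.1% called beside the 40.8%. Among them HMGB3 rose by 0.84 and TOX2 by 3.05. HMGN5, a nucleosome-binding family member, had 0, 1 and 0 counts against 18, 19 and 40, a ratio of 80.5 (exact 95% interval 14.0 to 3220). HMGN5 passed the filter on low counts only through the KO-labelled libraries. Without parental-labelled 2, which held the single parental-labelled count, it was at least 19.03-fold higher, against a floor of 3 counts over both libraries.

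Of 16 other tested oncofetal genes 7 rose, 2 fell and 7 were not called, or 56.3% called beside 40.8% of all tested genes. Their median log2 fold change was 0.54, but 0.27 on the log2(FPKM + 1) scale, and 0.87 without KO-labelled 1 or without KO-labelled 2. GPC3, PLAC1, CEACAM5 and CRABP1, which rose, had at most 8 counts in any parental-labelled library. They passed the filter on low counts only through the KO-labelled libraries, so the share higher and the median depend in part on that filter. TPBG and CEACAM6, which fell, passed in both groups. The filter also left out genes of this list. Among these, POU5F1 had 18, 9 and 21 counts in parental-labelled and 3, 0 and 0 in KO-labelled libraries. PLAG1 had 1, 7 and 5 against 75, 48 and 7. With no filter other than at least 1 count, 8 of 25 genes rose and 3 fell (median 0.62). At that setting 22.0% of all genes were called. GPC3, the fetal liver glypican, had 8, 5 and 7 counts against 79, 66 and 67, and rose by 3.45 (SE 0.26, edgeR adjusted p = 5.2e-05). SOX11, an embryonic transcription factor, rose from 36.2 ± 0.286 to 94.4 ± 5.81 CPM, or by 1.38. CEACAM6, a carcinoembryonic antigen family member, fell from 34.2 ± 0.756 to 10.2 ± 0.700 CPM, or by 1.74. These lists were described by counts and medians only.

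**Figure D4:**
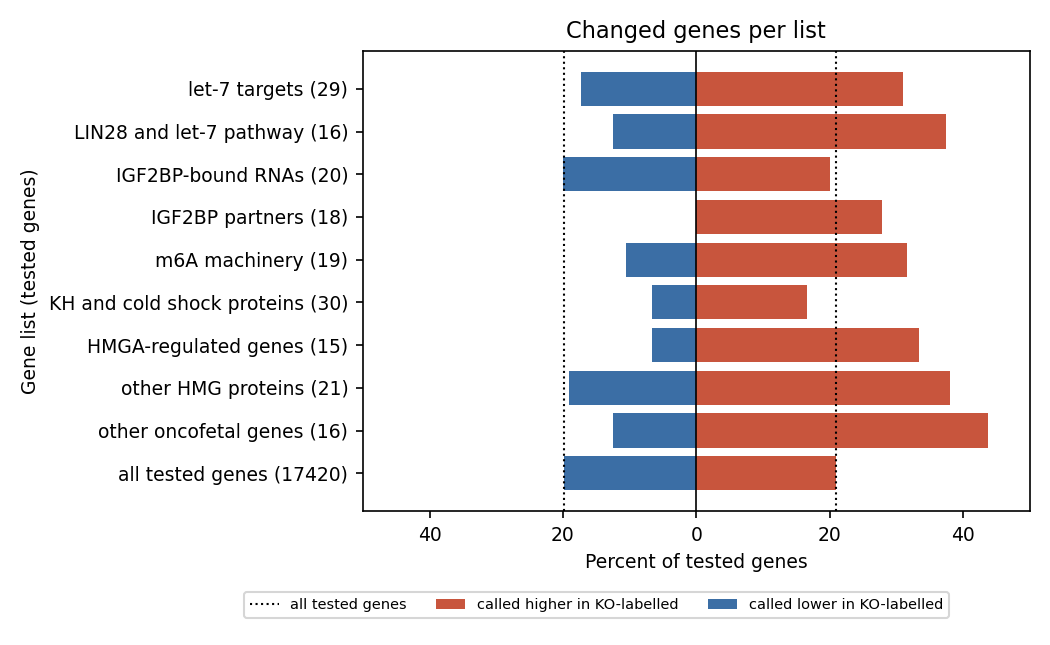
Percent of tested genes called higher (right) or lower (left) in KO-labelled libraries for 9 gene lists and for all tested genes. Numbers in brackets are tested genes, and dotted lines mark the 21.0% and 19.8% over all 17420 tested genes. In these calls 43.8% of the other oncofetal genes were higher, and none of the IGF2BP partners was called lower. Part of that 43.8% passed the filter on low counts only through the KO-labelled libraries.

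Leaving out KO-labelled 3 raised the share called over all genes to 52.6% and the called genes to 22 for let-7 targets, 15 for IGF2BP-bound RNAs, 11 for IGF2BP partners, 14 for KH and cold shock genes and 15 for other oncofetal genes. The Pearson correlation of log2 CPM of KO-labelled 3 was 0.981 with KO-labelled 1 and 0.984 with KO-labelled 2. KO-labelled 1 and 2 correlated at 0.991, and each pair of parental-labelled libraries at 0.995.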

How the data were processed

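Poly(A) RNA of 6 MDA-MB-468 cultures was sequenced from libraries made with a directional kit, per the labels' protocols. Unnormalised counts and FPKM values, both per gene, were deposited by the authors for each library. Cufflinks 2.0.2, STAR 2.4.0f1, SAMtools 0.1.19 and the build hg19 are listed in the submitters' processing notes without a role. The annotation, counter and strand setting were not given in the sources used here. Samples were grouped by the genotype label, and replicate numbers follow deposition order and pair nothing. The parental-labelled wells shared 1 plate, so p-values measure the spread between these samples, which may be technical.

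Counts were fitted with edgeR 4.0.16 in R 4.3.3 (filterByExpr, minimum count 10 and minimum total 15, TMM, quasi-likelihood F test, no covariate, Benjamini-Hochberg over 17420 genes). The SE is the log2 fold change divided by the square root of F. Tested genes held 99.9% of counts. Alternatives were DESeq2 1.42.0, DESeq2 size factors, library totals, no filter, limma 3.58.1 on log2(FPKM + 1) and log2(FPKM + 0.1), and leaving out each library. These edgeR steps were checked on simulated counts. The simulation left out genes with few parental-labelled counts, so it does not cover genes such as IGF2BP1 and HMGA2.

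Genes named were the 7 genes, GPR52, up to 4 called genes of smallest p per list, a set of fixed names (IGF2, H19, MYC, TRIM71, DICER1, CCND1, CDK6 and IGF1R among them), the 5 profiles nearest to IGF2BP1 and its nearest tested neighbours. A few genes that this rule takes are not reported here. HMGA1 pseudogenes, RPSAP52, COL1A1, COL1A2, LUM, PDGFRB, CDH5, MIRLET7D, NYNRIN, SMC1A, GNA15, GRM4, NUDT3 and GPNMB were named after their values were seen. The same holds for EGFR, PLAC1, CEACAM5, CRABP1, TPBG, POU5F1 and PLAG1. The 7 genes and all lists were chosen with earlier results of these data known. Seed matches were sought in the principal transcript with the longest 3′ UTR (GENCODE release 29, GRCh38, a later build than the files' hg19). Neighbours come from that annotation's order, in which 82.0% of tested genes were placed.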

Additional observations from a re-analysis of the deposited data

How the results depend on the processing

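The fitted log2 fold changes of the 5 tested genes and of the named list genes kept their sign under the alternatives run, except that of MYC, which was not called and was -0.15 without KO-labelled 3. Genes called over the whole table ran from 4879 to 9367 when 1 library was left out, or 27.3% to 52.6% of tested genes. On the log2(FPKM + 1) and log2(FPKM + 0.1) scales, which shrink low genes, the log2 fold change was 2.24 and 4.94 for IGF2BP1, 1.07 and 1.15 for IGF2BP2, 1.61 and 1.79 for IGF2BP3, and 1.76 and 4.31 for HMGA2. Leaving out 1 library gave 7.59 to 12.64 for IGF2BP1 and 4.87 to 6.40 for HMGA2. The highest of each came without parental-labelled 1, the lowest for IGF2BP1 came without parental-labelled 3, and the highest for IGF2BP1 is a fitted value against 0 counts and is no bound. By CPM in place of FPKM, the share of IGF2BP1 in KO-labelled libraries was 22.2%, that of IGF2BP2 56.6% in parental-labelled and 30.7% in KO-labelled, that of IGF2BP3 in parental-labelled 43.1%, and that of HMGA2 in parental-labelled 0.0253%. Over the left-out libraries the called genes ran from 11 to 22 for let-7 targets, 5 to 11 for the let-7 machinery, 6 to 15 for IGF2BP-bound RNAs (5 with log2(FPKM + 1)), 4 to 11 for IGF2BP partners, 4 to 10 for the m6A machinery, 6 to 14 for KH and cold shock genes, 3 to 9 for HMGA-regulated genes, 8 to 15 for other oncofetal genes and 10 to 22 for neighbours. DICER1 was called at 0.31 without KO-labelled 3, and CDK6 at 0.33 with library totals. The cause of these shifts was not tested. No paired analysis was possible because the labels give the groups no shared replicate numbers. Depth limits LIN28A and LIN28B, with at most 10 counts in a library.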

Other observations

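HMGA2, whose profile was compared in the same way as that of IGF2BP1 after its values were seen, had GNA15, a G protein alpha subunit gene, as its nearest gene, at a root mean square distance of 0.23 over the 6 libraries. GNA15 had 8, 4 and 1 counts in the parental-labelled and 120, 176 and 161 in the KO-labelled libraries. Like HMGA2 it was lowest of its group in KO-labelled 1. PLAU, on the list of HMGA-regulated genes, was the fourth nearest at 0.48, but was lowest of its group in KO-labelled 2. As for IGF2BP1, the likeness rests on 6 libraries in 2 groups and largely restates the difference between groups.

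GRM4, a glutamate receptor gene near HMGA1 on chromosome 6, was higher while HMGA1 was lower. It had 4 counts in all parental-labelled and 54 in all KO-labelled libraries, a ratio of 14.1 (exact 95% interval 5.20 to 53.7). GRM4 passed the filter on low counts only through the KO-labelled libraries. On the other side of HMGA1, NUDT3, a nudix hydrolase gene, fell from 284 ± 12.2 to 176 ± 15.6 CPM, or by 0.69 on the log2 scale, beside 0.56 for HMGA1. GPNMB, near IGF2BP3, was called higher from 3.65 ± 0.499 to 19.99 ± 20.3 CPM, with a KO-labelled SD larger than its mean.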
